A study of Mus musculus with 6 samples.

Results

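miR-155 is a microRNA of activated immune cells, and both of its arms were followed here in extracellular vesicles of mouse brain, small membrane-bound particles shed by cells. The members were chosen by name, as every row of the deposited table called mmu-miR-155-5p or mmu-miR-155-3p. Both were found, each in a row of its own, 2 of 1926 miRNA features. Small RNA had been sequenced from vesicles of mice that had gone through status epilepticus, a prolonged seizure (SE-BDEV, 3 libraries). Vesicles of control mice had been sequenced as well (CON-BDEV, 3 libraries). All titles carry day 10. The starting point of that count, how the seizure was evoked, and the strain, sex and age of the mice are not stated in the labels. Whether each library stands for a different mouse is not stated either, so the spread within a group may be technical.

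miR-155-5p had been picked out because it had the smallest p-value of all miRNAs in an earlier comparison of these same libraries and in the authors' deposited table. Its difference between the groups is therefore a description here, with no test, and nothing is read from it about other miRNAs.

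A microRNA is cut from a hairpin in a longer transcript, first to the hairpin and then to a short duplex of its 5p and 3p arms. An Argonaute protein keeps one arm, the guide, which finds messenger RNAs through its seed, bases 2 to 8, and the other arm, the passenger, is mostly degraded. In mouse, miR-155 comes from the non-coding gene Mir155hg (also called Bic), is induced in macrophages, microglia and lymphocytes by Toll-like receptor and NF-kB signalling, and represses Socs1 and Inpp5d (SHIP1), which restrain inflammatory signalling. The 5p arm is the usual guide.

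The sequences below are those the rest of the account turns on, taken from RefSeq (GRCm38.p6). The arms are shown with the seed in capitals, and the hairpin with both arms in capitals.
mmu-miR-155-5p: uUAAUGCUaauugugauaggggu
mmu-miR-155-3p: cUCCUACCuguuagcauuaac
mmu-mir-155 hairpin: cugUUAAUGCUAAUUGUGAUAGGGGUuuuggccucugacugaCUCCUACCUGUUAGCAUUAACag

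The hairpin lies on the plus strand at chr16:84714140-84714204 (GRCm38), and in GENCODE M21 it is wholly inside exon 2 of both annotated Mir155hg transcripts, chr16:84714053-84715245. The submitters' processing notes name mm9 for the alignment, so these positions belong to the reference and not to the deposited table. The 5p arm has 23 bases and the 3p arm 21, with 16 bases between them. In the predicted fold of lowest free energy, -27.2 kcal/mol, 19 bases of the 5p arm pair with the 3p arm, and all 7 seed bases of each arm are paired. The 5p arm begins with U and the 3p arm with C. The GC content is 34.8% on the 5p arm and 42.9% on the 3p arm.

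Neither seed is shared. Of the 1679 mature mouse sequences in the RefSeq table, no other has the seed of miR-155-5p or of miR-155-3p, and no other holds either run of 7 bases anywhere. The sequence nearest to miR-155-5p, miR-26b-5p, is 8 edits away, and the 2 nearest to miR-155-3p are also 8 edits away. Reads of either arm thus have no close relative in that table with which they could be confused. The table matched 1637 of the 1926 names in the deposited file.

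Depth bears on how well a low miRNA is measured. In every library each deposited RPM value (reads scaled to the same miRNA total in each library) was a whole multiple of a single step, taken here as 1 read. The libraries then hold 4996073 to 9391887 reads in SE-BDEV and 4400167 to 8147118 in CON-BDEV. The vesicle libraries carried brain miRNAs, with all 8 neuronal markers above 0 and a summed neuronal level of 26605 to 48793 RPM in SE-BDEV and 28455 to 34950 RPM in CON-BDEV. Of the red blood cell markers, miR-451a, miR-144-3p and miR-144-5p were listed at 0 throughout, while the merged row miR-486a-5p/486b-5p was above 0 in every library, at 110, 102 and 111 RPM in SE-BDEV 1, 2 and 3, and 199, 87.4 and 83.6 RPM in CON-BDEV 1, 2 and 3.

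miR-155-5p, the guide arm, was present in all 6 libraries and about 6-fold more abundant in the vesicles of seizure mice. It stood at 219, 259 and 189 RPM in SE-BDEV 1, 2 and 3, against 37.0, 27.7 and 39.4 RPM in CON-BDEV 1, 2 and 3. The lowest SE-BDEV value was 4.81 times the highest CON-BDEV value, so the groups did not overlap. The means were 222 ± 34.8 RPM in SE-BDEV and 34.7 ± 6.15 RPM in CON-BDEV (SD, n = 3 each), a ratio of 6.40. On the log2(RPM + 1) scale the means were 7.79 ± 0.22 in SE-BDEV and 5.14 ± 0.26 in CON-BDEV (SD, n = 3 each), a difference of 2.65. The authors' deposited table gives a log2 fold change of 2.64 with a standard error of 0.26.

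**Figure D1:**
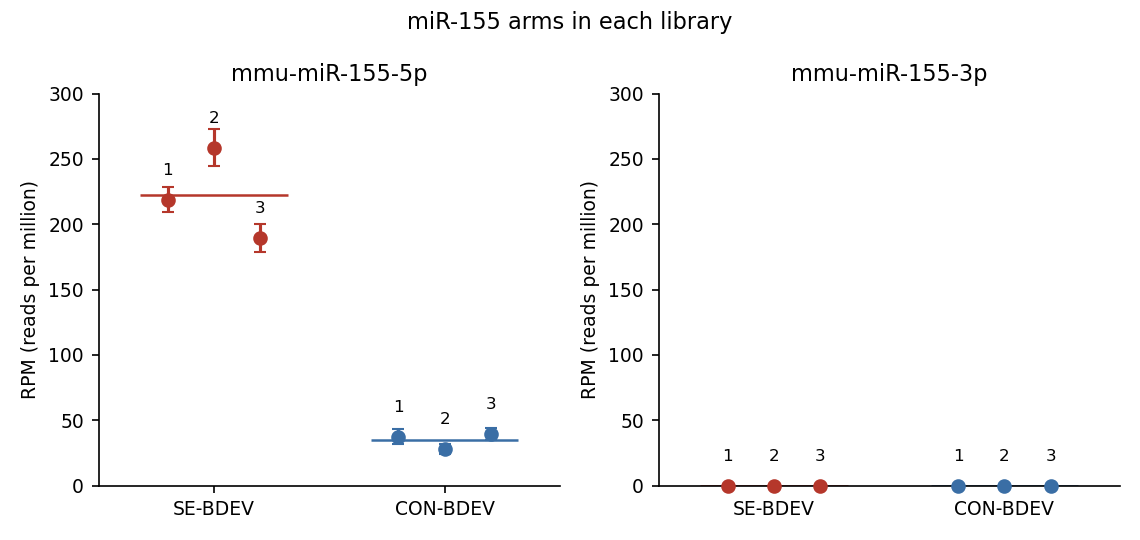
RPM of miR-155-5p (left) and miR-155-3p (right) in each library, numbered by replicate. Horizontal lines are group means and bars are exact 95% Poisson intervals of the reads, which cover counting error only; miR-155-5p lies between 189 and 259 RPM in SE-BDEV and between 27.7 and 39.4 RPM in CON-BDEV, and miR-155-3p is listed at 0 in all libraries.

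These values rest on 2056, 1292 and 1277 reads in SE-BDEV 1, 2 and 3, and on 163, 226 and 259 reads in CON-BDEV 1, 2 and 3. Exact 95% Poisson intervals, which cover counting error only, were 210 to 229, 245 to 273 and 179 to 200 RPM in SE-BDEV 1, 2 and 3. They do not overlap one another, so the SE-BDEV libraries differed from each other by more than counting error. In CON-BDEV 1, 2 and 3 the intervals were 31.6 to 43.2, 24.2 to 31.6 and 34.7 to 44.5 RPM. CON-BDEV 2 is lowest, and its interval lies below that of CON-BDEV 3. The highest value of a group was 1.37 times its lowest in SE-BDEV and 1.42 times in CON-BDEV. The coefficient of variation was 15.7% in SE-BDEV and 17.7% in CON-BDEV. The spread within groups was an SD of 0.24 on the log2 scale, beside a median of 0.39 over the 308 miRNAs that averaged at least 10 RPM. A choice by smallest p-value favours a small spread, so nothing is read from this. The highest miR-155-5p level came from SE-BDEV 2, the shallowest library of its group, so the level does not follow depth there.

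Each SE-BDEV library can be set against each CON-BDEV library. The 9 ratios ran from 4.81, for SE-BDEV 3 over CON-BDEV 3, to 9.32, for SE-BDEV 2 over CON-BDEV 2. Between libraries of the same number the ratio was 5.91 for number 1, 9.32 for number 2 and 4.81 for number 3. The widest and the narrowest of the 9 ratios are thus both between libraries of the same number.

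miR-155-5p also stood higher in the order of abundance in SE-BDEV. It ranked 91 of 605, 82 of 540 and 105 of 631 miRNAs above 0 in SE-BDEV 1, 2 and 3, against 198 of 532, 200 of 592 and 191 of 593 in CON-BDEV 1, 2 and 3. Its share of all miRNA reads was 0.0219%, 0.0259% and 0.0189% in SE-BDEV 1, 2 and 3, and 0.00370%, 0.00277% and 0.00394% in CON-BDEV 1, 2 and 3. It was a minor species in both groups. let-7c-5p, the most abundant miRNA, stood at 284548 to 337342 RPM in SE-BDEV and 336369 to 341368 RPM in CON-BDEV.

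**Figure D2:**
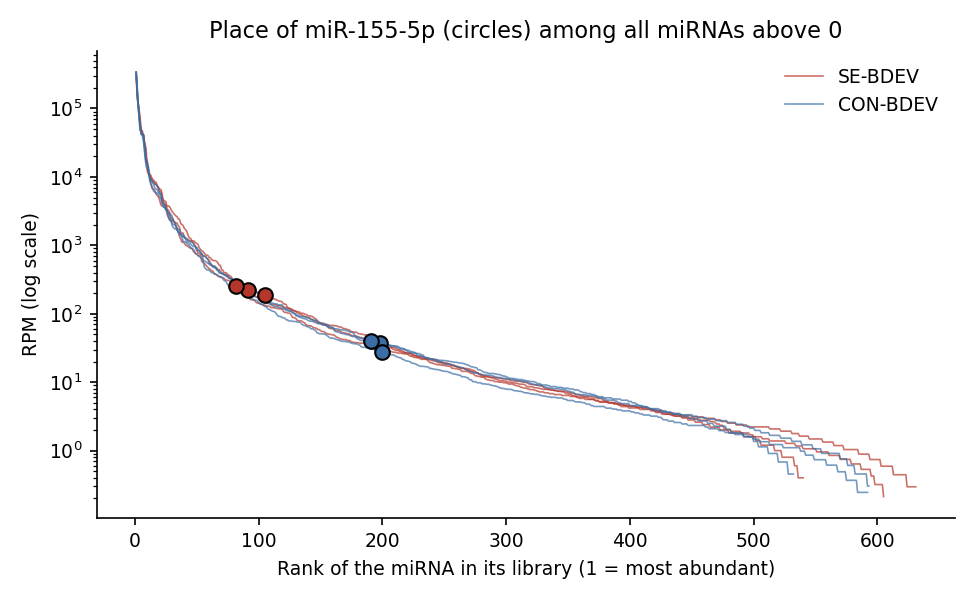
RPM on a log scale against rank for every miRNA above 0, with 1 line per library and a circle at miR-155-5p. In SE-BDEV the circles lie between ranks 82 and 105, and in CON-BDEV between ranks 191 and 200.

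Its neighbours in level show what else sits at those places. By mean level in SE-BDEV, miR-155-5p was in place 91, between miR-379-5p and miR-1298-5p. miR-379-5p, of the imprinted Dlk1-Dio3 cluster, had 224 ± 48.6 RPM in SE-BDEV and 230 ± 48.7 RPM in CON-BDEV (SD, n = 3 each). miR-1298-5p had 222 ± 53.6 RPM in SE-BDEV and 157 ± 75.8 RPM in CON-BDEV (SD, n = 3 each). By mean level in CON-BDEV miR-155-5p was in place 195, between miR-380-3p at 33.6 ± 18.0 RPM in SE-BDEV and 35.2 ± 5.30 RPM in CON-BDEV, and miR-665-3p at 49.2 ± 27.0 RPM in SE-BDEV and 34.5 ± 11.0 RPM in CON-BDEV (SD, n = 3 each). None of these 4 passed the test between groups (limma adjusted p of 0.608 to 0.964), and their groups overlapped.

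miR-155-3p, the passenger arm, was listed at 0 in all 6 libraries. The smallest value listed in any library equals 2 reads, so a listed 0 may hide 1 read, or a filter applied before deposit. miR-24-3p, a broadly expressed miRNA, was listed at 0 in SE-BDEV 1 and 2 and in CON-BDEV 1 and 2, but at 3128 RPM in SE-BDEV 3 and 3544 RPM in CON-BDEV 3. A 0 in this table therefore cannot be read as absence, and no limit on the 3p arm and no ratio between the arms is given. miR-155-3p is also not among the miRNAs of the authors' deposited comparison.

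A listed arm with an unlisted partner was common in these libraries. Of 717 hairpins with a row for each arm, 276 had an arm with 100 reads or more summed over the 6 libraries, and in 95 of those (34.4%) the other arm was listed at 0. miR-155, with 5273 reads on the 5p arm, was in place 13 by reads among those 95. Within a factor of 2 of its reads there were 42 hairpins, miR-155 included, and 11 had the other arm at 0. In the other hairpins of this range the lesser arm had between 2 and 7049 reads, with a median of 186. Both the bound of 100 reads and the factor were chosen after the values were seen.

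The other hairpins of immune and inflammatory signalling were divided on this point. miR-146a, which dampens Toll-like receptor signalling in mouse and human, resembled miR-155, with 1573 reads on its 5p arm and none listed on its 3p arm. miR-21a had 2917 reads on the 5p arm and 37 on the 3p arm, a 3p share of 1.25%. miR-142a, from a hairpin of blood-forming lineages, had 2387 reads on the 5p arm and 434 on the 3p arm, a 3p share of 15.4%. In miR-223, a myeloid miRNA, the 3p arm held more reads (159) than the 5p arm (33), and in the neuronal miR-132 the 3p arm held 65.3% of the reads.

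**Figure D3:**
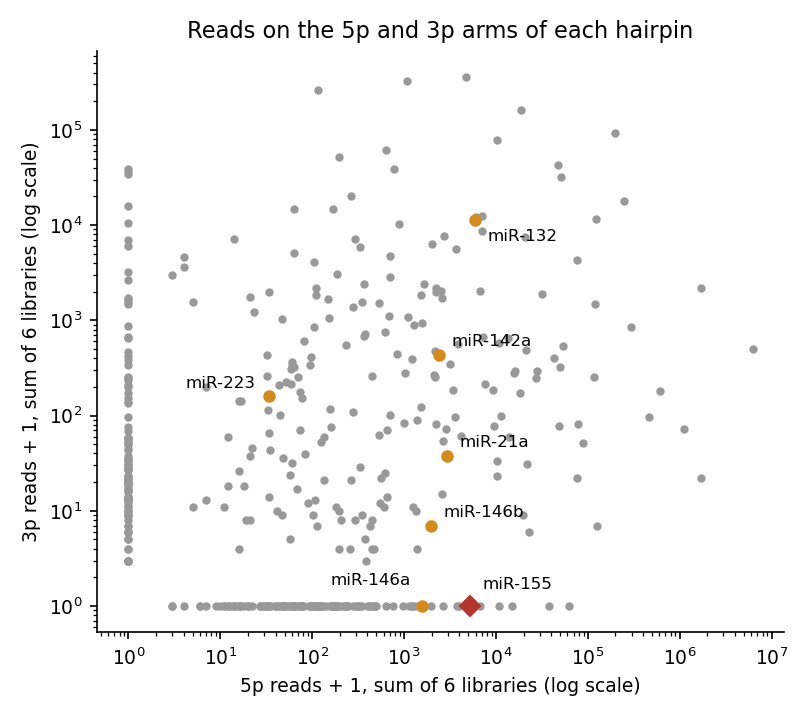
Reads on the 5p arm against reads on the 3p arm, each plus 1 and summed over the 6 libraries, on log scales, with 1 point per hairpin that has a row for each arm. miR-155 (diamond) has 5273 reads on the 5p arm and is listed at 0 on the 3p arm, on the lower edge together with miR-146a.

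The level of miR-155-5p was next set against the rest of the table. On log2(RPM + 1) values of those 308 miRNAs, limma called 3 miRNAs at an adjusted p under 0.05, all higher in SE-BDEV, 0.974% of those tested. miR-155-5p was 1 of the 3. miR-155-3p was not tested. The count was 8 without CON-BDEV 2, 4 higher and 4 lower in SE-BDEV. With the replicate number as a block it was 10, 9 higher and 1 lower. The authors' deposited table has 7 miRNAs under 0.05, 1.12% of its 625 with an adjusted p, and miR-155-5p is among them. The contrast chose the member, so neither count says anything of miR-155. Its log2 difference was the third highest of the 308, and the median over all tested miRNAs was 0.06. Groups that did not overlap, with SE-BDEV higher, were found for 33 of the 308 (10.7%).

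**Figure D4:**
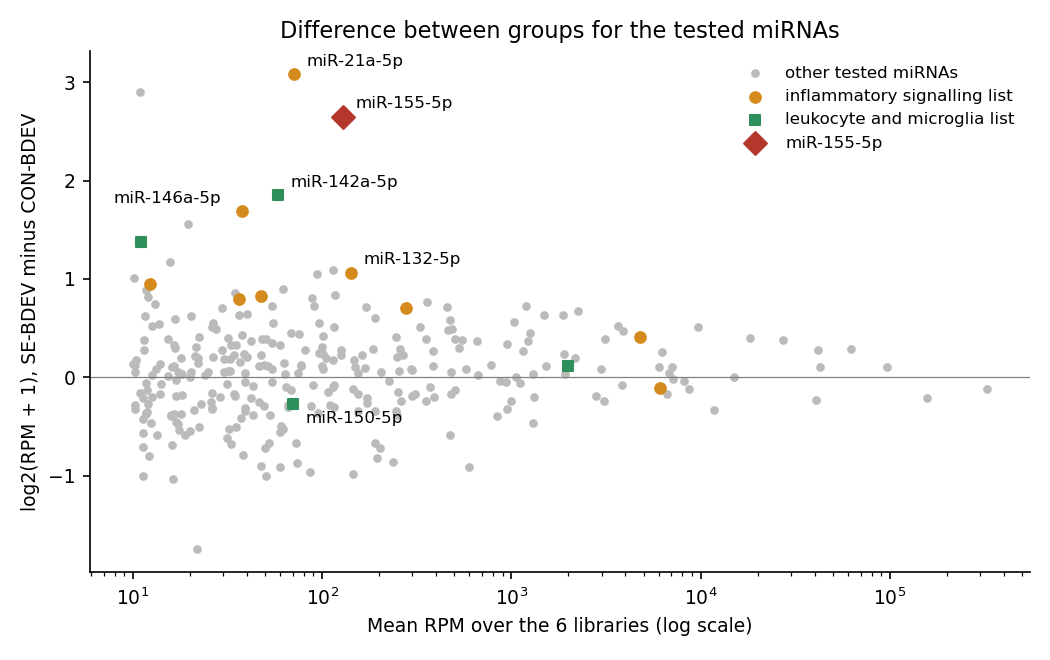
Difference in log2(RPM + 1), SE-BDEV minus CON-BDEV, against mean RPM on a log scale for the 308 tested miRNAs. miR-155-5p (diamond) lies at 2.65, with miR-21a-5p above it at 3.08 and miR-142a-5p below it at 1.85. miR-872-5p, not labelled, also lies above it at 2.89.

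The other 2 miRNAs called by limma were miR-21a-5p and miR-142a-5p. miR-21a-5p, raised in many settings of tissue injury, had 97.5, 119 and 163 RPM in SE-BDEV 1, 2 and 3, against 7.05, 17.2 and 21.0 RPM in CON-BDEV 1, 2 and 3. Its log2 difference was 3.08 ± 0.40 (SE, limma adjusted p = 0.000498), higher in 3 of 3 SE-BDEV libraries than in any CON-BDEV library. miR-142a-5p had 93.2, 121 and 64.3 RPM in SE-BDEV 1, 2 and 3, against 20.9, 25.7 and 26.5 RPM in CON-BDEV 1, 2 and 3. Its log2 difference was 1.85 ± 0.32 (SE, limma adjusted p = 0.00761), and again all 3 SE-BDEV values were above all CON-BDEV values. This call was lost when SE-BDEV 1, SE-BDEV 2 or CON-BDEV 1 was left out (limma adjusted p = 0.0931, 0.0707 and 0.0759), and in each of those comparisons miR-155-5p and miR-21a-5p alone passed. The authors' deposited table further holds miR-132-5p (log2 fold change 0.98) and miR-6983-5p (7.33) as higher, and miR-935 (-1.01) and miR-1247-5p (-7.68) as lower. miR-6983-5p has no CON-BDEV library above 0 and miR-1247-5p no SE-BDEV library above 0, so the size of their fitted values is not interpretable.

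Partners of miR-155 in inflammatory signalling were taken as a list of 15 arms, chosen with earlier results of these data known. Of these, 9 reached the filter of 10 RPM, 8 of the 9 had a positive log2 difference, and 1, miR-21a-5p, passed. Over all 308 tested miRNAs, 177 had a positive difference and 0.974% passed. The median log2 difference of the 9 was 0.83, against 0.06 over all miRNAs tested. In 4 of the 9 the groups did not overlap and SE-BDEV was higher, beside 10.7% of the 308 tested miRNAs.

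miR-146a-5p, the NF-kB-induced partner that damps the signalling that miR-155 sustains, had 69.3, 77.9 and 29.3 RPM in SE-BDEV 1, 2 and 3, against 10.9, 15.3 and 24.6 RPM in CON-BDEV 1, 2 and 3. SE-BDEV 3 lies close to CON-BDEV 3, and the difference did not pass (log2 difference 1.69, limma adjusted p = 0.105). With other pseudocounts, other scalings or a lower filter it did not pass either (limma adjusted p of 0.0945 to 0.360). The call was made with limma array weights (adjusted p = 0.0128) and over miRNAs above 0 in all libraries (0.0431). It was also made without SE-BDEV 3 (0.0193), without CON-BDEV 2 (0.0126) and without both libraries numbered 3 (0.00646). With the replicate number as a block it was made too (limma adjusted p = 9.34e-05). The labels name no such pairs, and libraries of the same number did not correlate positively once miR-24-3p was left out. With SE-BDEV 1, SE-BDEV 2, CON-BDEV 1 or CON-BDEV 3 left out the call was not made (limma adjusted p = 0.723, 0.337, 0.542 and 0.0732). miR-146b-5p, which acts on the same pathway in human monocytes, had 61.0 ± 2.56 RPM in SE-BDEV and 34.2 ± 5.93 RPM in CON-BDEV (SD, n = 3 each; limma adjusted p = 0.344). The activity-induced miR-132-5p had 192 ± 33.7 RPM in SE-BDEV and 91.6 ± 17.5 RPM in CON-BDEV (SD, n = 3 each). Its limma adjusted p was 0.237 in the main fit, 0.0487 with the block and 0.0464 with array weights. With other pseudocounts or scalings it was 0.191 or more. miR-125b-5p, abundant in brain, was the single tested partner with a negative log2 difference, -0.11. miR-146a-3p and miR-147-3p were listed at 0 in every library.

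Among markers of leukocytes and microglia, 1 arm passed the test and the others tested did not. Of 6 arms on that list 4 were tested, 3 with a positive difference, beside 177 of the 308 tested miRNAs. miR-142a-5p was the one that passed, beside 0.974% of the 308, a call that single libraries can remove as given above. In 2 of the 4 tested, both arms of miR-142a, the groups did not overlap and SE-BDEV was higher, beside 10.7% of the 308 tested miRNAs. The median log2 difference of the 4 tested was 0.74, against 0.06 over all miRNAs tested. miR-142a-3p had 10.1, 17.4 and 21.9 RPM in SE-BDEV 1, 2 and 3, against 5.91, 3.81 and 7.14 RPM in CON-BDEV 1, 2 and 3, and did not pass (limma adjusted p = 0.344). The myeloid miR-223-3p, below the filter, had 6.18, 7.21 and 4.30 RPM in SE-BDEV 1, 2 and 3, against 3.41 and 2.58 RPM in CON-BDEV 1 and 2 and a listed 0 in CON-BDEV 3. The lymphocyte miRNA miR-150-5p had 81.2, 61.6 and 49.3 RPM in SE-BDEV 1, 2 and 3, against 77.7, 63.8 and 88.5 RPM in CON-BDEV 1, 2 and 3 (limma adjusted p = 0.769).

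The summed level of the 6 leukocyte and microglia arms was 1897 to 2534 RPM in SE-BDEV and 1798 to 2444 RPM in CON-BDEV. Most of it was miR-342-3p, which other brain cells also express. Without it the 5 other arms summed to 192, 209 and 142 RPM in SE-BDEV 1, 2 and 3, and to 109, 95.9 and 122 RPM in CON-BDEV 1, 2 and 3. Leaving it out was chosen after the values were seen, and its own log2 difference was 0.11. miR-142a-5p, already called, made up 93.2, 121 and 64.3 RPM of that sum in SE-BDEV 1, 2 and 3. In CON-BDEV 1, 2 and 3 it made up 20.9, 25.7 and 26.5 RPM. miR-150-5p went the other way (log2 difference -0.27). Whether more leukocytes or microglia contributed vesicles, or each vesicle carried more of the listed miRNAs, cannot be told apart in bulk libraries. The part of such cells in the miR-155-5p difference was not tested. Markers of other cell types had positive log2 differences as well, none of which passed. The 2 tested oligodendrocyte markers had a median of 0.45, the 2 endothelial markers a median of 0.60, and the liver miRNA miR-122-5p stood at 0.55. The oligodendrocyte marker miR-219a-5p was listed at 0 in every library and was not tested. The groups did not overlap, with SE-BDEV higher, for 1 of the 2 tested oligodendrocyte markers, 1 of the 2 endothelial markers and miR-122-5p. The same held for 1 of the 8 neuronal markers, so this trait was not particular to the immune lists. For 7 of the 8 neuronal markers the difference was positive, beside 177 of the 308 tested miRNAs, with a median of 0.26 over the 8. The red blood cell row miR-486a-5p/486b-5p was at -0.07.

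A ratio within a library does not depend on how the library was scaled. miR-155-5p was therefore divided by each arm of the lists that was above 0 in all 6 libraries, 26 in number. miRNAs are captured with unequal efficiency, so such ratios can be compared between libraries but do not give molar amounts. For 24 of the 26 every SE-BDEV ratio was above every CON-BDEV ratio. Since miR-155-5p was chosen for its difference, and its groups were already 4.81-fold apart in RPM, this count follows largely from that choice and is a description. The ratio of the group means, SE-BDEV over CON-BDEV, ran from 0.638, for miR-21a-5p, to 7.91, for miR-150-5p, with a median of 4.45.

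Against the neuronal miR-124-3p the ratio was 0.0274, 0.0389 and 0.0198 in SE-BDEV 1, 2 and 3, and 0.00474, 0.00361 and 0.00431 in CON-BDEV 1, 2 and 3. The means, 0.0287 ± 0.00958 in SE-BDEV and 0.00422 ± 0.000571 in CON-BDEV (SD, n = 3 each), differ by a factor of 6.80, close to that of the RPM values. Against miR-150-5p the ratio was 2.69, 4.19 and 3.83 in SE-BDEV 1, 2 and 3, and 0.477, 0.435 and 0.445 in CON-BDEV 1, 2 and 3. Its reads thus outnumbered those of the lymphocyte miRNA in every SE-BDEV library and were fewer in every CON-BDEV library.

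Against miRNAs that were also higher in SE-BDEV the ratio differed less between the groups. To miR-142a-5p it was 2.35, 2.14 and 2.94 in SE-BDEV 1, 2 and 3, and 1.77, 1.08 and 1.49 in CON-BDEV 1, 2 and 3, still without overlap. To miR-146a-5p it was 3.16, 3.32 and 6.45 in SE-BDEV 1, 2 and 3, and 3.40, 1.81 and 1.60 in CON-BDEV 1, 2 and 3, where CON-BDEV 1 lies among the SE-BDEV values. To miR-21a-5p it was 2.24, 2.18 and 1.16 in SE-BDEV 1, 2 and 3, and 5.26, 1.61 and 1.88 in CON-BDEV 1, 2 and 3. The last 2 ratios were the exceptions among the 26, and miR-21a-5p was the single partner to which the mean ratio was lower in SE-BDEV. That direction rests on CON-BDEV 1, where miR-21a-5p stood at 7.05 RPM. The ratios of CON-BDEV 2 and 3 lay below those of SE-BDEV 1 and 2 and above that of SE-BDEV 3.

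**Figure D5:**
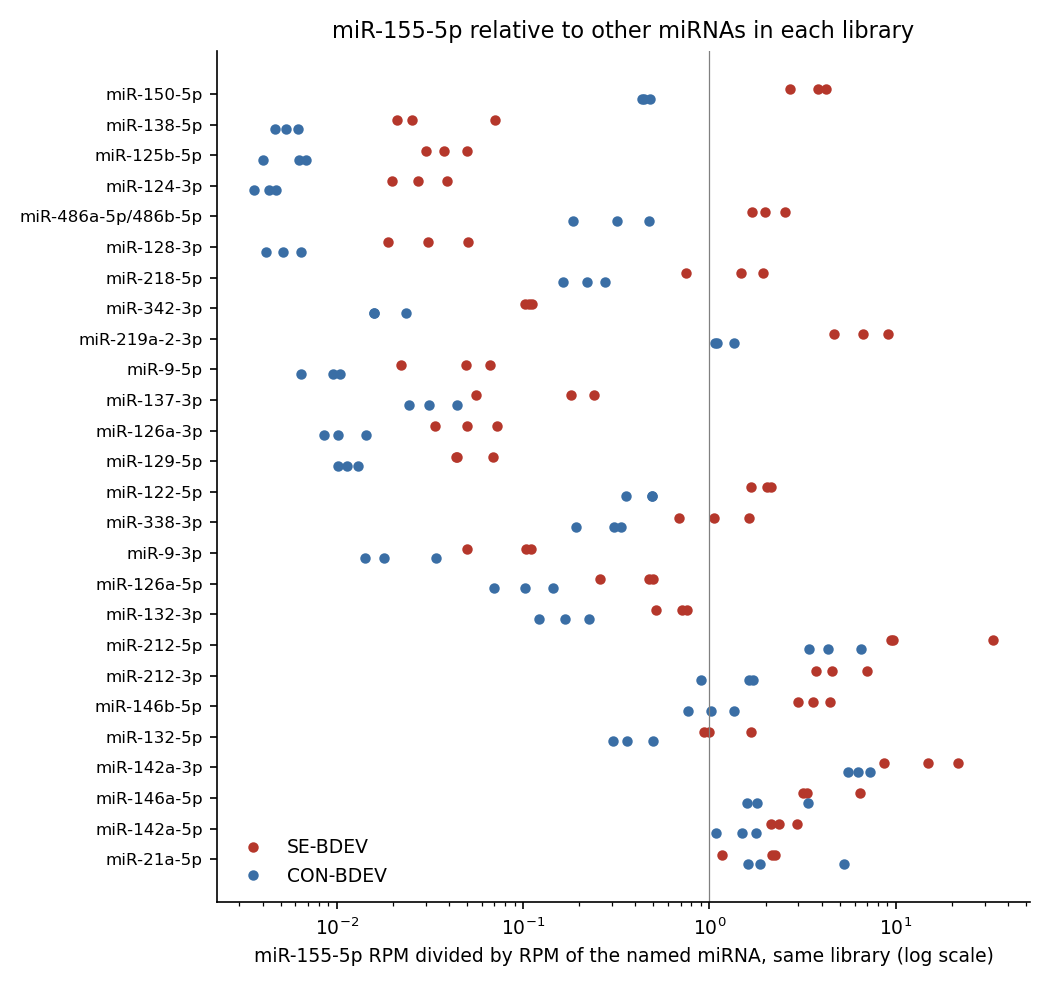
RPM of miR-155-5p divided by the RPM of each listed miRNA in the same library, on a log scale, with 3 points per group and miRNA. The groups are apart for 24 of the 26 miRNAs and overlap for miR-146a-5p and miR-21a-5p at the lower end.

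The miRNAs whose pattern was most like that of miR-155-5p were sought among the 307 other tested ones, by Pearson's r of log2(RPM + 1) over the 6 libraries. The libraries share their scaling and fall into groups, so r mostly shows the step between the groups. The 5 highest were miR-142a-5p (0.97), miR-21a-5p (0.93), miR-15b-5p (0.93), miR-146b-5p (0.91) and miR-20a-5p (0.90). Their sequences are given, with seeds in capitals, because none shares its seed with miR-155-5p or with another of the 5.
mmu-miR-142a-5p: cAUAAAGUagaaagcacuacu
mmu-miR-21a-5p: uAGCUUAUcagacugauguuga
mmu-miR-15b-5p: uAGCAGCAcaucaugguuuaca
mmu-miR-146b-5p: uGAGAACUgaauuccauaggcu
mmu-miR-20a-5p: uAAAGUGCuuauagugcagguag

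Once values were centred on the group means, r with miR-155-5p was 0.53 for miR-142a-5p, -0.29 for miR-21a-5p, 0.13 for miR-15b-5p, -0.28 for miR-146b-5p and -0.59 for miR-20a-5p. Among the SE-BDEV libraries miR-155-5p was highest in SE-BDEV 2 and lowest in SE-BDEV 3. miR-142a-5p and miR-146a-5p had the same order there, while miR-21a-5p, miR-146b-5p and miR-142a-3p, the other arm of the miR-142a hairpin, were highest in SE-BDEV 3. These were picked after their values were seen. The least alike were miR-676-3p (r = -0.87), miR-935 (-0.85) and miR-383-5p (-0.84). miR-676-3p had 1096 ± 115 RPM in SE-BDEV and 1511 ± 197 RPM in CON-BDEV (SD, n = 3 each), and none of the 3 passed the test (limma adjusted p of 0.344 to 0.457).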

How the data were processed

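RNA came from a miRNeasy Micro Kit with DNase treatment and libraries from a QIAseq miRNA kit, per the labels' protocols. The authors deposited RPM values per library. The authors' deposited comparison holds a mean normalized signal, log2 fold changes, their standard errors, a test score and p-values. DESeq2 and mm9 are named in the submitters' processing notes. The sources used here do not give the aligner, the counting tool or whether molecular identifiers were counted.

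All RPM values were whole multiples of a step per library (tolerance 0.001 step). Reads over median-of-ratios factors matched the authors' deposited mean signal within a relative difference of 1.39e-09. No single reads are listed, so no count model was fitted. limma 3.58.1 (R 4.3.3) with trend and robust empirical Bayes was run two-sided on log2(RPM + 1) at a mean of 10 RPM or more. Adjustment was Benjamini-Hochberg over all 308 miRNAs, with calls under 0.05. The fit was tested on simulated data. Hairpin folding used ViennaRNA 2.7.2, edit distances edlib 1.3.9.post1, and figures matplotlib 3.10.9.

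Members and lists were chosen with earlier results of these data known. Named were the members, the 5 most and 3 least alike miRNAs, sharers of a seed, called miRNAs, neighbours in level, and list members that passed or stood at 0. Others named from the lists, miR-872-5p and the denominators named were chosen after their values were seen.

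The groups share replicate numbers. Deviations from the group means correlated at 0.216, 0.202 and 0.462 for numbers 1, 2 and 3, above the bound of 0.1 for treating them as pairs, and at -0.0639, -0.0614 and -0.0806 without miR-24-3p. The labels do not name them as pairs.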

Additional observations from a re-analysis of the deposited data

How the results depend on the processing

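The miR-155-5p log2 difference of 2.65 ran from 2.38 to 2.85 over 21 alternatives. It moved by more than the SD within groups only with a pseudocount of 10 (2.38), which shrinks low values by construction. Changes of the filter, the replicate block and leaving out miR-24-3p cannot alter this difference. miR-155-5p was chosen on this contrast, so nothing is read from the sign. The difference was 2.58 with median-of-ratios scaling and 2.50 to 2.76 with 1 library left out. The main fit gave 3 called miRNAs and 2 list members called higher. With the replicate block (the pairing by number) the counts were 10, 1 of them lower in SE-BDEV, and 4, also without miR-24-3p. The block left the miR-155-5p value unchanged. Array weights gave 6 and 4, a mean of 100 RPM or more, where 129 were tested, 1 and 0, and the authors' deposited comparison 7 and 3. Scaling to a total without the 10 most abundant miRNAs called 1 list member, miR-142a-5p being at an adjusted p of 0.0648 by limma. Leaving out 1 library gave 2 to 8 called miRNAs (8 without CON-BDEV 2, 4 of them lower in SE-BDEV) and 1 to 3 list members. The runs without both libraries numbered 3 (2.85), without miR-24-3p, and over miRNAs above 0 in all libraries were chosen after seeing the data. The cause of the other changes was not tested. The planned edgeR fits were not run, and miR-155-3p and the arm share gave no values, being listed at 0. The 3 libraries per group and 163 to 259 CON-BDEV reads limit the precision.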
